A study of Mus musculus with 8 samples.

Results

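The genes described here encode the proteins of the cytosolic ribosome. They were picked by gene name as the Rpl and Rps genes with a number and an optional closing letter a, l, x or y, together with Rplp0, Rplp1, Rplp2, Rpsa and Fau, and without the Rps6k kinases. This gave 82 of the 23335 gene names in the table, which is 0.351%, with 49 genes of the large subunit and 33 of the small subunit. The study took single red fluorescent neurons from the frontal cortex of female mice. It counted unique molecular identifiers (UMI), the random tags that mark single molecules of amplified poly(A) RNA. All sample titles call the mice WT. Chandelier cells (ChC), interneurons that contact the axon initial segment of pyramidal cells, came from Nkx2.1-CreER mice carrying the Ai14 reporter, which had received tamoxifen at E17.5. Parvalbumin-positive basket cells (Pv) came from Pv-ires-Cre mice with the same reporter, and the labels carry the same tamoxifen note for them although this Cre is not an inducible form. Each type came from 2 animals, aged P31 and P32 for ChC and P29 and P35 for Pv, and each animal gave 2 library batches of 16 cells, so that ChC fill batches 1 to 4 and Pv batches 5 to 8. Nkx2.1-CreER marks the cells by the time of induction and Pv-ires-Cre by the activity of the parvalbumin gene, and mouse line, flow cell and cell type cannot be told apart.

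A ribosome holds a single copy of most of its proteins, and the acidic proteins of the stalk are the known exception. The large subunit forms peptide bonds and houses the exit tunnel, and the small subunit binds the mRNA and reads its codons. The mRNAs of these proteins start with a terminal oligopyrimidine tract, through which the mTOR pathway regulates their translation, and their genes have left many processed pseudogenes in mammalian genomes.

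Of the 128 cells in the table, 126 held a UMI, with 63 of each type, and no 2 of these cells had identical counts. Batches 1 to 4 held 448121, 556405, 2460679 and 1123083 UMI, and batches 5 to 8 held 392580, 430860, 316540 and 797177. The median cell had 24089, 30281, 93419 and 43541 UMI in the ChC batches and 23170, 22837, 14868 and 44394 in the Pv batches, so batch 3 was the deepest and batch 7 the shallowest. Levels are given as CPM, the UMI of a gene per 1000000 UMI of its batch, and are not divided by transcript length because a tag marks a molecule and not a stretch of it.

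All 6 markers of GABAergic interneurons had UMI, and their sum lay between 3191 CPM in batch 7 and 6231 CPM in batch 5. Pvalb, the calcium-binding parvalbumin, stood at 147, 196, 108 and 86.4 CPM in the ChC batches and at 1643, 764, 670 and 1217 CPM in the Pv batches, with no overlap. The other markers listed for Pv did not follow it. Erbb4, a neuregulin receptor, was higher in every ChC batch (3901 to 5645 CPM) than in any Pv batch (1269 to 2167 CPM), Kcnc1 overlapped, and the sum of the 3 was 4691 to 6323 CPM in ChC and 2857 to 4214 CPM in Pv. Batch 7 stood apart, with 287 CPM of Hba-a1, a blood marker that no other batch held, 392 CPM of pyramidal markers, mostly Slc17a7 at 348 CPM, and 1024 CPM of astrocyte markers led by Slc1a2 at 603 CPM. The 4 blood markers summed to 594 CPM there, but Hba-a1 and Hba-a2 had the same counts in every cell, as did Hbb-b1 and Hbb-b2, so this sum repeats counts. Slc17a6, Neurod6, Tbr1 and Emx1 among 7 pyramidal markers and Gfap among 7 astrocyte markers had no UMI in any batch. The astrocyte sum was 776 CPM in batch 4 and 374 CPM or less in the other 6 batches, down to 37.9 CPM in batch 1. Oligodendrocyte markers summed to 142 CPM or less, with Mobp and Mag at 0, and precursor markers to 43.9 CPM or less, with Cspg4 and Olig2 at 0. Microglial markers reached 117 CPM in batch 4 with C1qa at 0, and endothelial and mural markers 134 CPM in batch 8 with Cldn5, Ly6c1, Itm2a and Vtn at 0. Batch 1 also stood apart, through the ribosomal protein genes themselves, which were fewest per cell there, so values without it leave out a batch for the genes that they describe. Batch 4 held the most microglial markers and the next most astrocyte markers after batch 7, and values without it are given as well. The part that these markers play in the values that follow was not tested.

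Ribosomal protein genes gave 154589 of 6525445 UMI. Their share was 1.31%, 1.75%, 1.73% and 3.37% in ChC batches 1 to 4 and 4.53%, 2.33%, 2.11% and 3.02% in Pv batches 5 to 8. The Wilson 95% intervals reached at most 0.0651 percentage points to either side, a width that covers counting error only. The Pv batches all lay above 3 of the ChC batches, but ChC batch 4 lay above Pv batches 6, 7 and 8, so the types overlapped. The mean was 2.04% ± 0.910 in ChC and 3.00% ± 1.10 in Pv (SD, n = 4 batches each), a difference about as large as the spread between batches of a type. Without batch 4 the ChC mean was 1.60%, and without batch 5 the Pv mean was 2.48%. These were the lowest means with a batch left out, and the highest were 2.28% in ChC, without batch 1, and 3.29% in Pv, without batch 7. Summed over the batches of an animal, the share was 1.55% and 2.24% in the ChC animals and 3.38% and 2.76% in the Pv animals.

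Most cells lay near the value of their batch. In batch 5 the shares ran from 3.74% to 5.13%, above every cell of the other batches. In batch 1 they ran from 0.896% to 1.50%, and in batch 4 from 2.67% to 3.64%, so the cells of these 2 ChC batches did not overlap. Single cells stood off in others, at 1.02% in batch 2, 1.10% in batch 3 and 0.929% in batch 6, all within the range of batch 1. The SD over the cells of a batch was 0.175 percentage points in batch 3 and 0.394 in batch 6, both smaller than the SD between batches of either type.

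**Figure D1:**
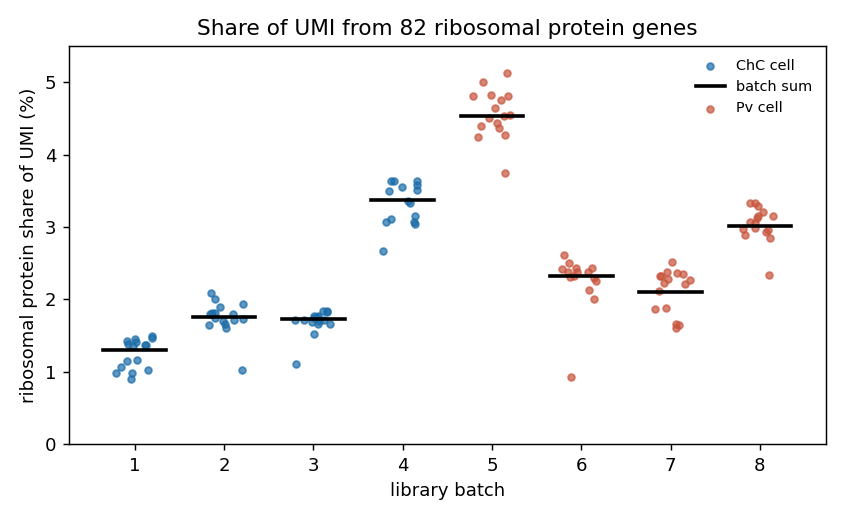
Percent of a cell's UMI that came from the 82 ribosomal protein genes (vertical axis) in the 8 library batches (horizontal axis), with a point for each of 126 cells and a black line for the summed UMI of the batch. The lines lie between 1.31% in batch 1 and 4.53% in batch 5, and the cells of batch 5 lie above all others.

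Of the 82 genes, 80 had a UMI, 47 of the large subunit and 33 of the small subunit. In every batch 75 had a UMI. Of the other 5 with a UMI, Rpl34 had none in batch 1, where 0 UMI allow up to 6.69 CPM, and Rpl22 had none in batch 6, where the limit is 6.96 CPM. Rps27l had none in batches 1 and 2, and Rpl3l had a single UMI, in batch 3. Rpl10l and Rpl39l had no UMI in any cell. With each cell of at least 10000 UMI thinned to that depth, the median cell of 103 held a UMI of 63 ribosomal protein genes, and the cells ran from 38 to 73. The medians of the ChC batches were 43, 55, 60 and 67 genes, and those of the Pv batches 69, 58, 62 and 68. Batch 1 was lowest at equal depth, and none of its cells held more than 53 of the genes. At 5000 UMI the median cell held 47.5 of them, and without thinning 72.

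The mean level over the 8 batches had a median of 235 CPM over the genes with a UMI, against 17.9 CPM for all genes with a UMI, and 78 ribosomal protein genes lay above that value. The median was 240 CPM for the large subunit and 229 CPM for the small subunit. The 90th percentile, 639 CPM, was 6.98 times the 10th, 91.5 CPM, while most of the proteins enter the ribosome in equal numbers. The 10 most abundant genes gave on average 35.5% of the UMI of the set. The spread depended on the library, since the same ratio within a batch was 72.8 in batch 1, 30.9 in batch 6 and 8.39 in batch 7. Without batch 1 the ratio of the mean levels was 8.07, and without batch 7 it was 7.64.

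Among small subunit genes, Rps3a, whose protein lies near the exit of the mRNA channel, was the most abundant on average. Its level was 53.6, 767, 433 and 3307 CPM in the ChC batches and 5917, 2509, 2079 and 1386 CPM in the Pv batches. It was low in batches 1 to 3 and high in batch 4 and all Pv batches, so the types overlapped only through batch 4. In cells of at least 10000 UMI it ran from 0 to 120 CPM in batch 1 and from 2525 to 3929 CPM in batch 4. Rpsa, also known as the laminin receptor, stood at 301, 543, 527 and 809 CPM in the ChC batches and at 3161, 743, 578 and 2081 CPM in the Pv batches. Batches 5 and 8 stood far above the rest, and batches 6 and 7 lay under ChC batch 4. Rps23, a protein of the decoding centre, was at 17.9, 474, 381 and 1454 CPM in ChC and at 2713, 678, 676 and 795 CPM in Pv. Batch 5 was highest and batch 1 lowest, as for Rps3a.

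Rps12, a protein of the beak of the small subunit, was at 125, 606, 654 and 2236 CPM in ChC and at 634, 562, 799 and 957 CPM in Pv. Its peak was in batch 4, and the other batches except batch 1 lay within a narrow band. Rps24, mutated in some families with Diamond-Blackfan anaemia, was at 848, 832, 266 and 1440 CPM in ChC and at 1286, 183, 537 and 1037 CPM in Pv. Low and high batches occurred in both types, and its means were 847 CPM ± 479 in ChC and 761 CPM ± 495 in Pv (SD, n = 4 batches each). Rps6, the substrate of the S6 kinases, was not among the genes named by rule and was looked up after its values were seen, with 12.6 CPM in batch 2 and between 209 and 397 CPM elsewhere. At the low end Rps28, a protein near the mRNA exit, was at 132, 57.5, 25.2 and 295 CPM in ChC and at 79.0, 23.2, 114 and 27.6 CPM in Pv. Batches of both types lay near 25 CPM, and batch 4 was highest.

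Among large subunit genes, Rpl4, whose protein lines the exit tunnel, led with 589, 980, 637 and 793 CPM in ChC and 1551, 548, 941 and 1564 CPM in Pv. Batches 5 and 8 were the high ones, as for Rpsa. Rpl27 was at 212, 796, 634 and 332 CPM in ChC and at 2657, 620, 455 and 715 CPM in Pv, and Rpl27a at 15.6, 318, 528 and 806 CPM in ChC and at 1258, 921, 246 and 975 CPM in Pv. The names are alike but the proteins differ, and in batch 4 Rpl27a was the more abundant of the pair while in batch 2 it was Rpl27. Rpl11, which joins Rpl5 and a small ribosomal RNA in the central protuberance and also binds Mdm2, was at 1337, 363, 1060 and 499 CPM in ChC and at 339, 97.5, 430 and 873 CPM in Pv. It was the most abundant ribosomal protein gene of batches 1 and 3, batch 6 was its lowest, and the types overlapped.

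Rpl10, X-linked and added late near the peptidyl transferase centre, was at 62.5, 1244, 468 and 785 CPM in ChC and at 619, 378, 449 and 358 CPM in Pv. It was the most abundant gene of the set in batch 2 and at the much lower 62.5 CPM in batch 1, and both batches came from the same animal. Rps3a held that place in batches 4 to 7 and Rpsa in batch 8. The leading gene gave between 6.12% of the UMI of the set, in batch 3, and 13.05%, in batch 5. Rpl35, which sits at the tunnel exit, was at 6.69, 41.3, 27.2 and 120 CPM in ChC and at 324, 71.9, 82.1 and 72.8 CPM in Pv. Batch 5 stood alone, and batch 4 exceeded the other 3 Pv batches. Rpl22, which mice can live without and which has a paralog, Rpl22l1, averaged 46.4 CPM ± 29.8 in ChC and 77.2 CPM ± 56.6 in Pv (SD, n = 4 batches each).

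The stalk genes, which recruit the translation factors, differed in level although their proteins form 1 complex. Rplp0, the base of the stalk, averaged 70.0 CPM, Rplp1 684 CPM and Rplp2 314 CPM over the 8 batches. Rplp1 was at 397, 261, 425 and 983 CPM in ChC and at 958, 1000.3 and 1019 CPM in Pv batches 5, 6 and 8, with 426 CPM in batch 7. Rplp2 was at 87.0, 155, 113 and 509 CPM in ChC and at 767, 48.7, 401 and 429 CPM in Pv. Both were high in batch 4, and in batch 6 Rplp2 was at its lowest while Rplp1 was not. Rplp0 lay between 21.1 CPM in batch 3 and 152 CPM in batch 8, under Rplp1 in every batch.

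Fau and Rps27a encode a ribosomal protein fused to a ubiquitin-like protein and to ubiquitin. Fau averaged 213 CPM ± 74.5 in ChC and 445 CPM ± 282 in Pv, and Rps27a 373 CPM ± 266 in ChC and 272 CPM ± 108 in Pv (SD, n = 4 batches each). Rps27a was the more abundant in batch 4, at 768 CPM against 181 CPM for Fau, and Fau in batch 5, at 861 CPM against 415 CPM. The X-linked genes are Rpl10, Rpl36a, Rpl39 and Rps4x. Rps4x kept between 68.3 and 399 CPM in all batches, whereas Rpl36a was as low as 4.64 CPM in batch 6 and Rpl39 as low as 2.23 CPM in batch 1, with 482 CPM and 201 CPM as their highest values. Chromosome 7 carries 14 of the 82 genes, the most of any chromosome.

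Paralogs known from other tissues were at or near 0. Rpl10l and Rpl39l, known from testis, had no UMI beside means of 545 CPM for Rpl10 and 113 CPM for Rpl39. Rpl3l, known from striated muscle, had 1 UMI beside 2097 UMI of Rpl3, which lies at the peptidyl transferase centre. Rps27l, a p53 target, was at 0, 0, 15.4 and 4.45 CPM in ChC and at 76.4, 2.32, 22.1 and 5.02 CPM in Pv. Batch 5 was highest, and the other batches held 22.1 CPM or less. Its partner Rps27, a zinc finger protein of the small subunit, lay between 26.96 and 121 CPM and was above Rps27l in every batch except batch 5, where it was at 30.6 CPM.

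**Figure D2:**
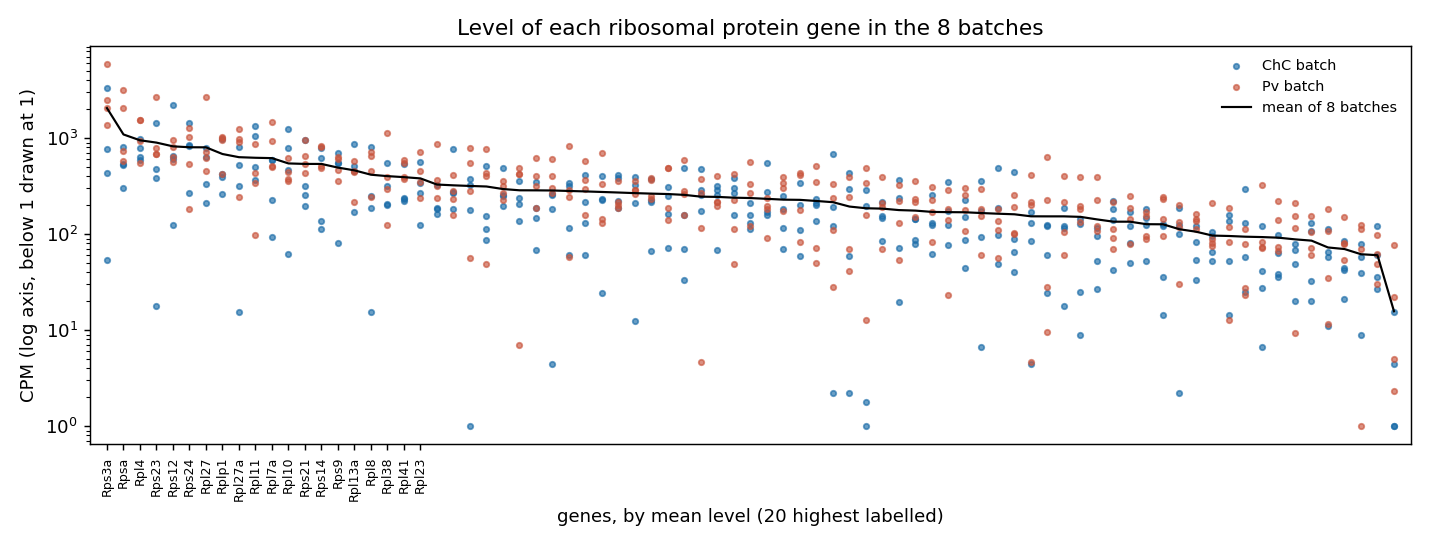
Level in CPM (log axis) of the 79 ribosomal protein genes with at least 50 UMI, ordered by mean level (the 20 highest are labelled), with a point for each of the 4 ChC and 4 Pv batches and a line for the mean of the 8 batches. Levels drawn at 1 are 0, and ChC batch 1 gives many of the low points, such as 53.6 CPM for Rps3a.

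The small subunit genes together gave 0.668, 0.674, 0.657 and 1.10 UMI per UMI of the large subunit genes in ChC batches 1 to 4, and 1.00, 0.942, 0.856 and 0.831 in Pv batches 5 to 8. Batch 4 lay above all Pv batches and the other ChC batches under all of them. The mean was 0.775 ± 0.218 in ChC and 0.908 ± 0.0795 in Pv (SD, n = 4 batches each), a difference smaller than the SD in ChC, and without batch 4 the ChC mean was 0.666. Without batch 1 it was 0.811, and without batch 7 the Pv mean was 0.926. By animal the ratio was 0.672 and 0.840 in ChC and 0.981 and 0.836 in Pv, so a ChC animal lay above a Pv animal by less than 0.01.

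As a percent of the UMI of the set, which takes out the share itself, genes differed widely in how steady they were. Rpl34 ran from 0 in batch 1 to 2.34% at its highest, and Rpl10a, the mobile L1 stalk protein, from 0.0171% to 2.05%. Both were among the 3 genes with the largest SD of log2 share over the 8 batches, at 3.25 and 2.25. The smallest were those of Rps21 (0.31, from 1.48% to 2.86%), Rpl41 (0.39, from 1.22% to 2.84%) and Rpl9 (0.42, from 0.798% to 1.91%). Rpl41, the shortest of these proteins, was at 221, 230, 238 and 538 CPM in ChC and at 553, 371, 597 and 393 CPM in Pv. Its ChC values lay together except for batch 4, which lay among the Pv values. The most abundant gene was not steady, since Rps3a gave 0.410% of the set in batch 1 and 13.05% in batch 5.

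The coefficient of variation over the 8 batches had a median of 0.645 over the 78 ribosomal protein genes with a mean of at least 50 CPM, and ran from 0.314 for Rpl9 to 1.34 for Rpl14. Over all 4641 genes with such a mean the median was 0.842, without matching for level above that limit. Between batches of the same animal the median absolute log2 difference in share over the 80 genes was 0.67 to 1.34, with a median of 0.86 over 4 pairs. Between animals of a type it was 0.67 to 1.34 (median 0.79, 8 pairs), and between types 0.52 to 1.60 (median 0.86, 16 pairs). The animals of a type also differed in age and in sequencing lane, so animal, age and lane cannot be told apart. The Spearman correlation of levels across these 80 genes, which are not independent of each other, was 0.38 to 0.72 over the pairs from 1 animal, 0.24 to 0.70 between animals of a type and 0.27 to 0.78 over the pairs of different types. Batch 1 set the low ends. Without it the difference was 0.67 to 1.01 within animals (median 0.70), 0.67 to 0.87 between animals of a type (median 0.77) and 0.52 to 1.06 between types (median 0.81), so the ranges overlapped. The Spearman correlation was then 0.51 to 0.72 within animals, 0.47 to 0.70 between animals of a type and 0.53 to 0.78 between types.

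Within a batch the cells differed far less. A chi-square per degree of freedom, computed for each gene from the cells of 1 batch and their total UMI, is near 1 where counting error alone separates the cells, and grows with the count where cells differ by more. For ribosomal protein genes that reached 100 UMI in a batch its median was 1.33, 0.972, 0.998 and 0.986 in ChC and 1.17, 1.14, 1.23 and 1.07 in Pv, over 17 to 71 genes. For all genes at that count the medians ran from 0.991 to 1.25. Taken over the 8 batch sums, the median was 60.6 for 78 ribosomal protein genes, from 11.1 to 1422, and 37.2 for 8732 genes of the table, at counts that differ. Given the UMI of the set in place of the total, it was 42.1 between batches and 0.882 to 1.10 within them. On a scale that does not grow with the count, the coefficient of variation beyond counting error, the median for ribosomal protein genes was between 0% and 17.9% within the 8 batches and 61.3% between them. For all genes it was between 0% and 15.6% within batches and 87.0% between them. Between batches the ribosomal protein genes thus varied less than the median gene, but the sets were not matched for level. Whether genes of the same level vary as little was not tested.

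For the summed set this coefficient was between 3.13% in batch 3 and 13.4% in batch 7 within batches, and 41.7% between them. In batch 6 it was 12.5%, and without the cell at 0.929% it was 0.947% over the other 14 cells. The chi-square per degree of freedom of the sum was 11.1 in batch 6, the highest, and 1.06 without that cell. The highest value of a single gene within a batch was that of Rps12 in batch 4, at 6.62, where its cells of at least 10000 UMI ran from 1527 to 3008 CPM. In batches 6 and 7 the highest was Rps3a, at 3.18 and 2.72, and in batch 5 Rpsa, at 3.01. Raising the count minimum to 200 UMI moved the mean of the 8 medians from 1.11 to 1.35.

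**Figure D3:**
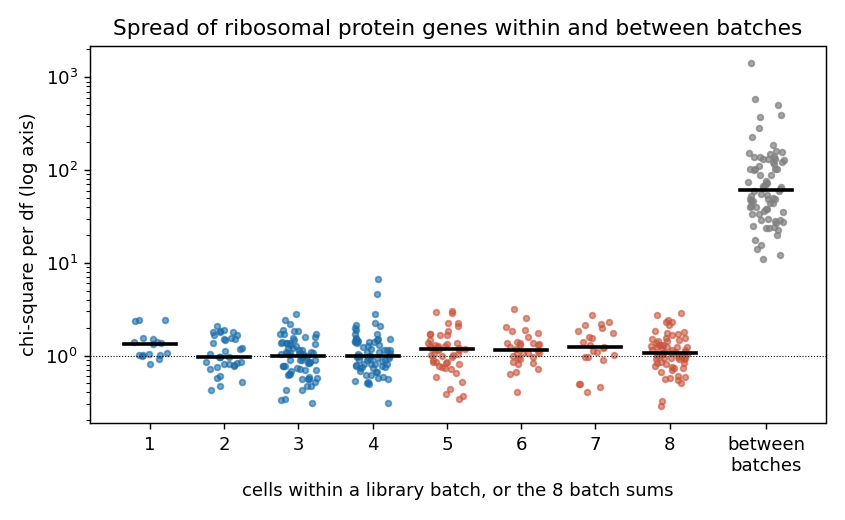
Chi-square per degree of freedom (log axis) of each ribosomal protein gene with at least 100 UMI, over the cells of each of the 8 library batches and, at the right, between the 8 batch sums, where counts are larger and the measure grows with them. Points are genes, black lines are medians, blue is ChC, red is Pv, and the dotted line at 1 marks counting error alone; the medians are 0.972 to 1.33 within batches and 60.6 between them.

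To ask whether any gene differed between the types, UMI were summed per animal and 2 ChC animals were compared with 2 Pv animals across the whole table with edgeR. Of the 82 ribosomal protein genes, 79 (96.3%) passed the filter on low counts, and Rpl3l, Rpl10l and Rpl39l did not. At an adjusted p under 0.05 edgeR called 0 of the 79, and 0 of all 9681 genes tested (0%). At an unadjusted p under 0.05 there were 3, Rpsa, Rps3a and Rpl7a, which is 3.797% against 6.38% of all genes. DESeq2 called 0 of the 79, beside 1.84% of 9480 genes, and had 1 (1.27%) at an unadjusted p under 0.05, against 11.6% of all genes. Without the filter edgeR called 1 of 80, Rps3a, beside 0.508% of 16531 genes, and with batches as samples 0 of 78, beside 0.0955% of 6283 genes. At an unadjusted p under 0.05 batches as samples gave 1 of the 78 (1.28%) against 6.83% of all genes. Without the filter 5 of the 80 (6.25%) met that limit, against 8.84% of all genes. With batch 1 left out of the sums edgeR called 0 of 79 and 0 of all 9369 genes, with batch 7 left out 0 of 79 and 1 of all 9013, and with batches as samples and batch 4 left out 0 of 78 and 6 of all 6759.

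Estimated log2 fold changes, ChC relative to Pv, had a median of -0.66 over the 79 genes and of 0.05 over all genes, and 65 of the 79 (82.3%) had a lower estimate in ChC, against 48.4% of all genes. Ribosomal protein genes share libraries and are not independent of each other, so this count carries no test. With batches as samples the median over 78 ribosomal protein genes was -0.55. Leaving out batch 5 then brought it to -0.25, and leaving out batch 4 to -0.78. Rpsa had a log2 fold change of -1.73 (SE 0.47, adjusted p = 0.582). Rps3a had -1.72 (SE 0.66, adjusted p = 0.682), and when single animals were dropped it was called without ChC animal 2, at -2.63, or without Pv animal 4, at -2.32, in fits that called 60 of 10990 and 96 of 11102 genes. It was not called without ChC animal 1, at -1.17, or without Pv animal 3, at -0.67. Rpl7a, named only for its unadjusted p after its values were seen, had -1.29 (SE 0.53). The lowest estimate was that of Rps27l, -1.97 (SE 1.83), from 85 UMI in all, and Rpl35 had -1.72 (SE 1.10). With an animal left out, Rps27l lay between -7.61 and -0.52 and Rpl35 between -2.32 and -0.70. The highest estimates were those of Rps28 at 1.01 (SE 1.03), Rpl11 at 0.91 (SE 0.62) and Rpl10 at 0.58 (SE 0.55). With an animal left out, they ran from 0.91 to 1.13 for Rps28, 0.36 to 1.89 for Rpl11 and 0.29 to 0.94 for Rpl10. In CPM, every Pv batch lay above every ChC batch for 2 of the 79, among them Rpl28, beside 2.05% of all genes, and the reverse held for 0, beside 2.21%. Rpl28 was named for this after its values were seen, and its log2 fold change was -1.10 (SE 0.80).

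Other genes of translation and of cell stress each gave a smaller share. In none of the 8 lists did edgeR call a gene, and the counts at an unadjusted p under 0.05, met by 6.38% of all genes, follow for each. DESeq2 called 1.84% of all genes. Of ribosomal components outside the naming rule 5 were tested and 1 counted, with a median log2 fold change of -1.14. That gene was Rpl36al, at 2.23, 140, 68.7 and 158 CPM in ChC and at 130, 499, 281 and 533 CPM in Pv. Of the Pv batches only batch 5 lay within the ChC range, while its near copy on the X chromosome, Rpl36a, averaged 300.3 CPM ± 131 in ChC and 191 CPM ± 163 in Pv (SD, n = 4 batches each). Gnb2l1, the scaffold of the small subunit head, averaged 191 CPM.

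Elongation factors gave 0.259% ± 0.0742 of UMI in ChC and 0.213% ± 0.0488 in Pv (SD, n = 4 batches each), with 0 of 9 counted and a median of -0.29. Eef1a1, which brings aminoacyl-tRNA to the ribosome, averaged 920.1 CPM, Eef1a2, its neuronal form, 357 CPM, and Eef2, the translocase, 605 CPM. Eef1a1 was highest in batch 4, at 1892 CPM, and lowest in batch 7, at 227 CPM, where Eef2 was at its highest with 1219 CPM. Initiation factors gave 0.468% ± 0.122 in ChC and 0.613% ± 0.0996 in Pv, with 1 of 43 counted and a median of -0.30, led by Eif4h (603 CPM), Eif1 (598 CPM) and Eif4g3 (439 CPM). Other mRNAs with a terminal oligopyrimidine tract gave 0.244% ± 0.0753 in ChC and 0.256% ± 0.0324 in Pv, with 0 of 10 counted and a median of -0.43. This list shares genes with the others, among them its 3 most abundant, Eef1a1, Eef2 and Gnb2l1, so its values are not separate from theirs. In batch 5 they stood at 0.300%, under the 0.354% of batch 4, whereas the ribosomal protein genes peaked in batch 5.

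Ribosome biogenesis genes gave 0.139% in both types, with SDs of 0.0491 in ChC and 0.0177 in Pv (n = 4 batches each), 2 of 23 counted and a median of 0.34, led by the nucleolar Ncl (254 CPM), Npm1 (164 CPM) and Sbds (87.0 CPM). Mitochondrial ribosomal protein genes gave 0.374% ± 0.0541 in ChC and 0.448% ± 0.0809 in Pv, with 1 of 71 counted and a median of -0.55, and DESeq2 called Mrps12 among them, at 5.36 CPM ± 4.18 in ChC and 155 CPM ± 89.4 in Pv. The leading genes were Mrpl18 (209 CPM), Mrps6 (166 CPM) and Mrps25 (146 CPM). Genes of mTOR and translation control gave 0.0973% ± 0.0258 in ChC and 0.0872% ± 0.0107 in Pv, with 0 of 11 counted and a median of -0.25, and Tsc1, an inhibitor of the pathway, averaged 149 CPM, Larp1, which binds oligopyrimidine tracts, 131 CPM, and Mtor 118 CPM. Genes of the response to dissociation and stress gave 0.427% ± 0.150 in ChC and 0.634% ± 0.250 in Pv, with 5 of 9 counted and a median of 1.17, and DESeq2 called Egr1 (222 CPM ± 122 in ChC and 4.26 CPM ± 7.71 in Pv), Ier2 (78.8 CPM ± 137 in ChC and 0 in Pv) and Junb (76.4 CPM ± 31.2 in ChC and 1.58 CPM ± 3.16 in Pv). Ier2 was not among the 9 genes tested with edgeR, and most of it came from batch 3. Egr1, Ier2 and Junb are immediate early genes of the stress list. Among its abundant genes the chaperone Hspa8 was at 1164 CPM ± 327 in ChC and 3540.4 CPM ± 1166 in Pv, Hsp90aa1 at 854 CPM ± 369 and 2271 CPM ± 1237, and Fos at 1636 CPM ± 1211 and 310.4 CPM ± 289. The stress list was at 0.855% in batch 5, where the ribosomal protein share was highest, but also at 0.819% in batch 6, where that share was 2.33%, and at 0.476% in batch 4, where it was 3.37%. Its part in that share was not tested.

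Ribosomal protein transcripts resemble other places of the genome. For 80 of the 82 genes, all but Rpl41 and Rps20, a GENCODE M1 transcript on the mm9 build was matched, and every window of 50 bases in its last 300 bases was looked up in the rest of the genome. At least 1 window had an identical copy elsewhere for 63 of the 80 (78.8%), against 18.96% of 19099 matched genes of the table. At least 50% of windows had one for 48 (60%) against 5.46%, the median percent was 68.1 against 0, and for 19 ribosomal protein genes all windows had one. How the submitters treated reads with several alignments is not given in the sources used here, so the counts of such genes may hold more or less than their own molecules. The 48 genes had a median mean level of 245 CPM and a median coefficient of variation of 0.619, and the 16 genes with a UMI and no window elsewhere 167 CPM and 0.717. Without the 48 genes and the unmatched Rpl41 and Rps20, the small to large ratio was 0.685 in ChC and 0.735 in Pv.

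To show what such copies look like, a window of the 3 most abundant genes with at least 50% of windows elsewhere is printed 5′ to 3′ on the strand of the gene, with the repeated 50 bases in capitals and 15 bases to either side. The Rps3a window, in exon 6 of 6 at chr3:85941949-85941998 on the minus strand of mm9, has 2 identical copies elsewhere, on 2 chromosomes and in 0 annotated pseudogenes. The Rps23 window, in exon 4 of 4 at chr13:91064215-91064264 on the plus strand, has 8 copies on 4 chromosomes, 5 of them in annotated pseudogenes. The Rps12 window, in exon 4 of 6 at chr10:23505736-23505785 on the minus strand, has 17 copies on 6 chromosomes, 14 of them in annotated pseudogenes.
Rps3a: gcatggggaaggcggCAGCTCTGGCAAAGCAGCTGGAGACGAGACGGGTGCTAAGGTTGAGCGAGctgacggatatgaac
Rps23: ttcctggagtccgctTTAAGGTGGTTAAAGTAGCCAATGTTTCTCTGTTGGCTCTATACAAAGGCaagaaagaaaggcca
Rps12: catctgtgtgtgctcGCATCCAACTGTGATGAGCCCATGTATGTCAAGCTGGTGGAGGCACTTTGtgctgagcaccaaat

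Many ribosomal protein genes host small nucleolar RNAs, which guide the modification of ribosomal RNA, in their introns. In the coordinates of the table, 22 of the 82 genes held 31 of its 105 small nucleolar RNA genes, all on the strand of the host, and 17 of the 31 had UMI. Snora33 within Rps12 had 1719 UMI beside 6021 of its host, Snora52 within Rplp2 358 beside 1765, Snord42a within Rpl23a 255 beside 1452, and Snord100 within Rps12 122. Rps12 thus held the largest of these counts. Under another gene name at the same place, the counts of 4 genes were repeated in every cell, Rpl26 as Gm15772, Rpl30 as Gm12191, Rps27 as Gm9846 and Rpl34 as Rpl34-ps1. Another 6 genes overlap a gene on the other strand.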

How the data were processed

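The deposited table holds counts of distinct tags per transcript and cell, which the authors made from reads aligned to mm9 with Bowtie 0.12.7, per the labels. How reads with several alignments were handled is not given in the sources used here. Cells were summed by batch and by animal, and 2 cells without a UMI were left out. Transcript rows of a gene often repeat the same counts, so each gene is given by its row with the most UMI. The plan had been to sum the rows, and this was switched after the counts were seen. Rows are identical in 1295 of the 2641 genes with more than 1 row, and there the sum repeats counts. Where rows differ, the row with the most UMI may leave molecules out. The sum is kept as an alternative, with mean ribosomal protein shares of 1.86% in ChC and 2.77% in Pv. Of the 82 genes 7 have more than 1 row, and in 6 the rows are identical. Summed rows gave mean levels of 736 CPM in place of 286 for Rpl35a, 674 in place of 402 for Rpl38, 563 in place of 329 for Fau and 410.1 in place of 240 for Rpl19. The members, lists and tests were chosen with earlier results of these data known.

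Depth ran from 316540 to 2460679 UMI per batch. Shares carry Wilson 95% intervals, and 0 UMI were read as up to 3. Intervals and limits cover counting error only. Differences between 2 ChC and 2 Pv animals were tested with edgeR 4.0.16 in R 4.3.3 (TMM, filterByExpr, quasi-likelihood test, Benjamini-Hochberg over all genes tested, threshold 0.05), with DESeq2 1.42.0 as an alternative. The code was tested on simulated data. Thinning drew 10000 UMI per cell without replacement. The chi-square compared a gene's UMI in each cell with its pooled share times the cell's total, and log2 shares had 0.5 UMI added. The coefficient of variation beyond counting error is a moment estimate from the same residuals, set to 0 where negative, and was added after the data were seen. Python 3.11.15, numpy 2.4.6, pandas 2.3.3, scipy 1.17.1, numba 0.67.0 and matplotlib 3.10.9 were used. Genome windows came from the mm9 sequence and GENCODE M1, searched in steps of 10 bases for the printed examples.

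Genes were named by rule: the 10 most abundant members, the 5 least abundant with a UMI, those without a UMI, the 3 largest log2 fold changes in each direction, the 3 largest and 3 smallest SDs of log2 share, the stalk, fusion and X-linked genes, paralogs with their partners, and the 3 most abundant or called genes of each list. Some genes that the rule picks are not named. Rpl5, Rpl7a, Rpl14, Rpl19, Rpl28, Rpl35a, Rpl38, Rps6, Rps20, the genes with repeated counts and the hosts of small nucleolar RNAs were named outside the rule after their values were seen.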

Additional observations from a re-analysis of the deposited data

Results flagged for a closer look

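In 13 of 86 groups of 4 batches that were looked at, a batch lay far from the other 3 of its type, with a gap to its nearest neighbour that, as a fraction of the whole range, exceeded Dixon's 95% critical value for 4 samples. For normally distributed values chance does this in about 1 in 20 groups, but that rate is no reference here. Many of the genes were named for their values in these same batches. Genes of a batch also share their library, so the groups are not independent. Batch 4 was the far one in 5 groups, batch 5 in 3 and batch 7 in 2.

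In ChC batch 4 the small to large subunit ratio was 1.10, where the other ChC batches had 0.657 to 0.674. Batch 4 also stood high for Rps21 at 963 CPM (others 199 to 316), Rpl41 at 538 CPM (221 to 238), Rplp2 at 509 CPM (87.0 to 155) and Rps27a at 768 CPM (183 to 275). In ChC batch 1 the median chi-square per degree of freedom within the batch was 1.33 (others 0.972 to 0.998), and in ChC batch 2 Fau was at 324 CPM (162 to 185).

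In Pv batch 5 Rps23 was at 2713 CPM (others 676 to 795), Rpl27 at 2657 CPM (455 to 715) and Rpl35 at 324 CPM (71.9 to 82.1). In Pv batch 6 Rps4x was at 399 CPM (196 to 218). Pv batch 7 was low for Rplp1, at 426 CPM (958 to 1019), and high for Rpl3, at 357 CPM (189 to 214).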

How the results depend on the processing

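Apart from runs with a batch left out, the ribosomal protein share moved by less than 1 SD between batches under every alternative run. Leaving out 1 of 4 batches cannot move their mean by 1 SD, so those runs could not exceed this limit. They gave means of 1.60% to 2.28% in ChC and 2.48% to 3.29% in Pv. A further alternative, chosen after seeing the data, left out members with at least 50% of windows elsewhere and the unmatched Rpl41 and Rps20. It brought the small to large ratio in Pv to 0.735, and the spread of levels (90th over 10th percentile) to 9.41. Summed rows gave a spread of 8.60, and leaving out each batch in turn 6.91 to 8.07. The chi-square per degree of freedom was 1.35 with a minimum of 200 UMI. The median cell held 47.5 members at 5000 UMI and 72 without thinning.

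Members called were 1 without the filter and 0 to 1 with an animal left out, where the lone animal is assumed to vary like the others. All genes called were 174 with DESeq2, 84 without the filter, 6 with batches as samples, 14 to 96 with an animal left out, and 1 with batch 7 left out of the sums (chosen after seeing the data). The percent of members with a lower estimate in ChC lay between 73.1 and 87.3, and between 69.2 and 87.2 with batches as samples and each batch left out.

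Of 30 named members tested, 19 kept the sign of their log2 fold change throughout. In 239 values under an alternative, 216 kept sign and side of the threshold, 20 had the other sign, and 3, all of Rps3a, passed the threshold. With batches as samples the sign turned for Rpl9 (0.078), Rps24 (0.22) and Rps27 (0.16), and without the filter for Rps27 (0.000305). With an animal left out, the sign turned for 11 members. Their ranges were -1.41 to 0.82 for Rpl10a, -0.036 to 0.88 for Rpl3, -7.55 to 0.23 for Rpl34, -0.16 to 2.12 for Rpl36a and -0.74 to 1.12 for Rpl39. They were -0.43 to 0.28 for Rpl9, -0.82 to 0.63 for Rps12, -0.33 to 0.18 for Rps24, -0.29 to 0.28 for Rps27, -0.23 to 0.58 for Rps27a and -0.87 to 0.19 for Rps4x. The causes were not tested. No paired analysis was possible because no animal, batch or flow cell holds both types, and lanes of the same number belong to different flow cells.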
